A study of Mus musculus with 6 samples.

Results

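Genes that mark lymphatic vessels and sinusoids were followed across the endothelial cells (ECs) of the mouse thymus. The 9 genes were Lyve1, Prox1, Pdpn, Reln, Mmrn1, Mmrn2, Stab1, Stab2 and Mrc1, picked by gene symbol out of 24457 gene rows. Stab1 and Mmrn2 were abundant in every EC library and highest in the Ly6C-Selp+ subset, and Stab1 passed the test there. Lyve1, Mmrn1 and Reln were found mainly in 1 of the 2 Ly6C-Selp+ libraries, whereas Prox1 stood at nearly the same low level in both. Mrc1, Pdpn and Stab2 were higher in replicate 1 of every subset, by 2.11 to 14.3 times.

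ECs were sorted from the thymus of wild-type female C57BL/6 mice aged 4 to 6 weeks, with no other treatment, as CD31+CD45-EpCAM- cells at a purity of at least 90%. They were divided by surface Ly6C and P-selectin (Selp) into 3 subsets: Ly6C+Selp-, Ly6C+Selp+ and Ly6C-Selp+, with 2 RNA-seq libraries each. None of the 9 genes encodes an antigen used in the sort. The labels do not say whether the replicates came from separate mice or how many mice a library holds, so the p-values measure only the spread between these libraries. Expression is given as FPKM, fragments scaled by transcript length and by the number of mapped fragments, which allows levels of genes of different length to be compared. The number of fragments behind a value was estimated from the width of its 95% interval. These estimates summed to between 1452476 and 2423171 per library, and 3 fragments corresponded to a median FPKM of 0.404 to 0.716. The sort itself was visible in the RNA: Between Ly6C+Selp- and Ly6C-Selp+ ECs, Selp rose by 6.31 and Ly6c1 fell by 3.42 on the log2(FPKM + 1) scale (limma, Benjamini-Hochberg adjusted p = 7.8e-06 and 0.00067).

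Lymphatic ECs arise when the homeobox transcription factor PROX1 is switched on in venous endothelium, and they carry the hyaluronan receptor LYVE1, the mucin-type glycoprotein podoplanin (Pdpn), the secreted glycoprotein reelin (Reln) and multimerin 1 (Mmrn1). Sinusoidal ECs, best known from liver, spleen and bone marrow, take up macromolecules through the scavenger receptors stabilin 1 and stabilin 2 (Stab1, Stab2) and the mannose receptor (Mrc1), and can carry LYVE1 as well. No single gene of the list is exclusive to either cell: Lyve1, Stab1 and Mrc1 are also made by macrophages, Pdpn by fibroblasts and epithelium, and Mmrn2 by blood ECs. In bulk libraries such as these, fewer cells of a type and less RNA per cell cannot be told apart.

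The 9 genes are all protein coding. In the mouse build of the expression values (mm9), Stab1 lies at chr14:31952203-31981827 and Mmrn2 at chr14:35188690-35217472. Prox1 is at chr1:191945658-191994559, Lyve1 at chr7:117994121-118006467, Mmrn1 at chr6:60894311-60939372 and Reln at chr5:21390272-21850523. Mrc1 lies at chr2:14151041-14253650, Pdpn at chr4:142857312-142889467 and Stab2 at chr10:86303955-86470687. Each value covers the whole gene. The 2 stabilin genes have 69 exons each in their longest annotated transcript, and Lyve1 has 6.

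Promoter sequences are shown for Mmrn1 and Reln, whose levels were high together in 1 library, and for Stab1, the member that passed the test. They come from RefSeq on GRCm38.p6, a later build than mm9, and run from 250 bases before to 50 bases after the annotated start, in the direction of transcription. Of the 9 genes, 7 had an entry; Lyve1 and Mmrn2 did not match. Capitals mark GGAAG, the core recognised by ETS factors, and AACAAT, a core recognised by SOX factors, searched on both strands; the other strand of GGAAG reads CTTCC. The Mmrn1 promoter is chr6:60944067-60944366 on the plus strand, that of Reln is chr5:22344656-22344955 on the minus strand, and that of Stab1 is chr14:31168592-31168891 on the minus strand.

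Mmrn1: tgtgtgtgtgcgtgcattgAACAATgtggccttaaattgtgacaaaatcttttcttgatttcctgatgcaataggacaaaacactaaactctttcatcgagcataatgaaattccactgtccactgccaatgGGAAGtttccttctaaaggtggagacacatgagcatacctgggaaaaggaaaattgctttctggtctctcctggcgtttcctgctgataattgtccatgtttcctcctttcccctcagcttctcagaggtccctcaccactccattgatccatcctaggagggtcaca
Reln: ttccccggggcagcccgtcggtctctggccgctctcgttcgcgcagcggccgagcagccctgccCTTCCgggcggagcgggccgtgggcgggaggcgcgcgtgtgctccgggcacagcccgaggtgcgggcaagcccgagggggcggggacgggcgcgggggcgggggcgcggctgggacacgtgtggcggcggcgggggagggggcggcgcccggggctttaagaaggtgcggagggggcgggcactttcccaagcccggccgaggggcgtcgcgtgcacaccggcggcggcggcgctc
Stab1: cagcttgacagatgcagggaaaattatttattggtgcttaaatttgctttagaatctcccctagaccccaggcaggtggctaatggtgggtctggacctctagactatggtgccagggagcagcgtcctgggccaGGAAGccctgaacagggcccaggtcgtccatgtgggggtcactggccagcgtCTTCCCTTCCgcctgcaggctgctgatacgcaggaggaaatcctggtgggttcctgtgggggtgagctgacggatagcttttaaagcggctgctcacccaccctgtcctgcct

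Stab1 holds 3 GGAAG matches and no AACAAT, Mmrn1 holds 1 of each, and the Reln window holds 1 match to the ETS core alone. That core is found in 71.4% of the 32851 mouse promoters of this length and the SOX core in 10.7%. The Mmrn1 and Reln promoters differ in composition. That of Reln is 80.7% G and C with 47 CpG dinucleotides and that of Mmrn1 is 44.3% with 3, beside a median of 52.7% and 7 CpG over all promoters.

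Stab1, the scavenger receptor of sinusoidal endothelium and of some macrophages, was graded across the subsets. Its FPKM was 22.0 and 23.6 in the 2 Ly6C+Selp- libraries, 30.3 and 46.8 in Ly6C+Selp+ and 84.3 and 133 in Ly6C-Selp+. The subsets did not overlap at any step. Ly6C-Selp+ ECs had 109 ± 34.6 FPKM (SD, n = 2 libraries) and Ly6C+Selp- ECs 22.8 ± 1.19, a 4.77-fold difference. On the log2(FPKM + 1) scale, the difference was 2.17 ± 0.31 (SE; limma, Benjamini-Hochberg adjusted p = 0.0050). Taken between libraries with the same replicate number, it was 1.89 and 2.45. The steps to and from the Ly6C+Selp+ subset were not past the threshold of 0.05: 0.70 ± 0.31 above Ly6C+Selp- (limma, adjusted p = 0.66) and 1.47 ± 0.31 from there to Ly6C-Selp+ (limma, adjusted p = 0.12). Without the filter on low values, the Stab1 call was lost (adjusted p = 0.16), one of 18 lost out of 19 calls on members and listed genes.

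Mmrn2, an EMILIN-family glycoprotein laid down in the matrix around blood ECs, was the most abundant of the 9 genes. It measured 181 and 163 FPKM in Ly6C+Selp-, 198 and 242 in Ly6C+Selp+ and 274 and 346 in Ly6C-Selp+ libraries, each resting on at least 1756 fragments. The order of the subsets was that of Stab1, with no overlap, but the steps were smaller. The largest one, from 172 ± 13.1 to 310 ± 50.4 FPKM (SD, n = 2), was 0.84 ± 0.24 on the log2 scale and did not pass (limma, adjusted p = 0.10).

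Prox1, the transcription factor that specifies lymphatic identity, was low but rested on both Ly6C-Selp+ libraries. It read 0.324 and 0.519 FPKM in Ly6C+Selp-, 0.534 and 1.09 in Ly6C+Selp+, and 3.05 and 3.22 in Ly6C-Selp+ libraries. The last 2 values stand on 27 and 49 fragments and the first 2 on 4 and 8. Their 95% intervals overlapped within each subset, and both Ly6C-Selp+ libraries were above all the others. Between Ly6C-Selp+ and Ly6C+Selp- the difference was 1.54 ± 0.37 on the log2 scale and did not pass (limma, adjusted p = 0.058). With no filter, the adjusted p of that limma fit was 0.24. Prox1 would not have met the filter without the Ly6C-Selp+ libraries, where it is high. The only other library in which it reached 1 FPKM was replicate 2 of Ly6C+Selp+. The difference between Ly6C-Selp+ and Ly6C+Selp+ was 1.21 ± 0.37 (limma, adjusted p = 0.30).

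**Figure D1:**
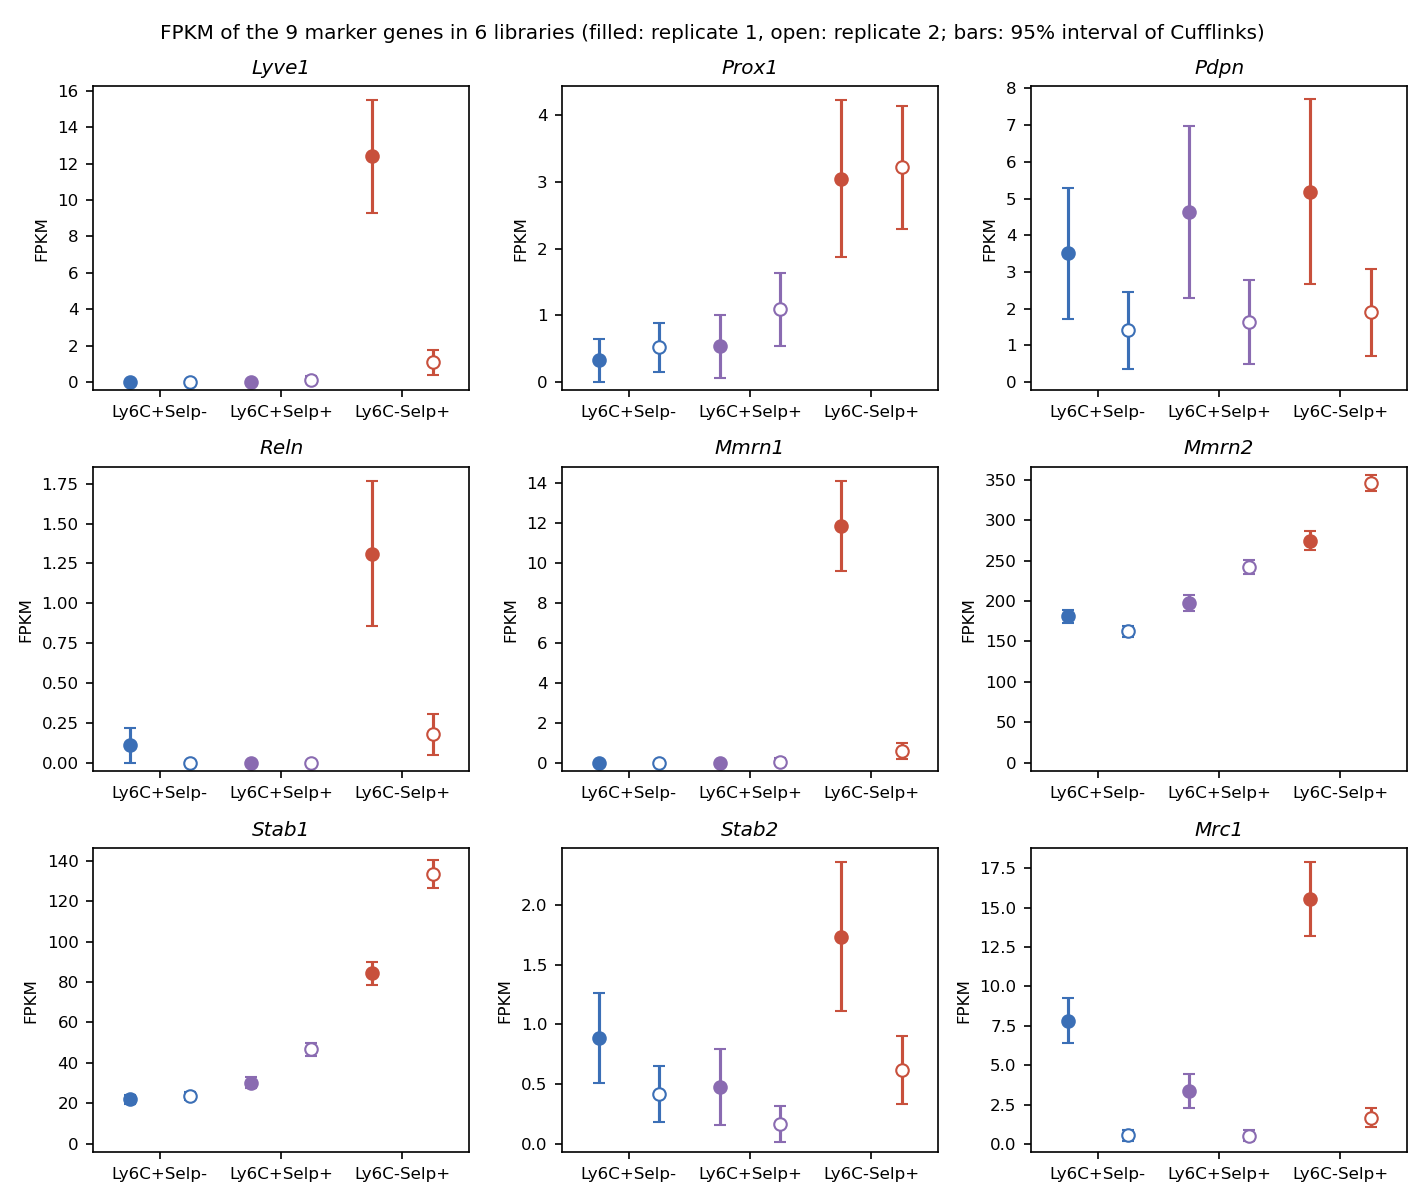
FPKM of the 9 genes in each of the 6 libraries, with 1 panel per gene; filled points are replicate 1, open points replicate 2, bars their 95% Cufflinks intervals, and colours the 3 subsets. Stab1, Mmrn2 and Prox1 are highest in both Ly6C-Selp+ libraries, while Lyve1, Mmrn1 and Reln are high in replicate 1 of that subset and fall to 1.07, 0.583 and 0.180 FPKM in replicate 2.

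Of the 9 genes, 6 reached 1 FPKM in at least 2 libraries and were tested, and 1 of these, Stab1, was called between Ly6C-Selp+ and Ly6C+Selp-, a comparison in which 4.14% of the 11717 tested genes were called. None was called between Ly6C+Selp+ and Ly6C+Selp- (0.393% of tested genes) or between Ly6C-Selp+ and Ly6C+Selp+ (0.222%). At an unadjusted limma p under 0.05 the members passing were 4 of 6, 1 of 6 and 3 of 6 in the 3 comparisons in that order, beside 14.1%, 7.48% and 9.99% of the tested genes. Lyve1 and Prox1 would not have met the filter without the Ly6C-Selp+ libraries, so nothing is read from these counts. Counted over all 9 without the filter, 6 genes (Lyve1, Prox1, Reln, Mmrn1, Mmrn2 and Stab1) were higher in both Ly6C-Selp+ libraries than in both Ly6C+Selp- libraries, as were 12.3% of all gene rows. Those 6 and Stab2 were higher in both Ly6C-Selp+ libraries than in both Ly6C+Selp+ libraries, beside 15.5% of all rows. Between Ly6C+Selp+ and Ly6C+Selp-, 3 genes stood apart in the same way (Prox1, Mmrn2 and Stab1), beside 7.98% of all rows. All rows include genes that failed the filter. Of the 11717 tested genes, 2430 were higher in this way in Ly6C-Selp+ than in Ly6C+Selp-. In Ly6C-Selp+ against Ly6C+Selp+ they were 3240, and in Ly6C+Selp+ against Ly6C+Selp- 1523. These comparisons share libraries and are not independent of each other. For a single gene, an exact permutation test of 2 against 2 libraries cannot give a p below 0.33.

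Lyve1, the hyaluronan receptor, was listed at 0 in both Ly6C+Selp- libraries and in replicate 1 of Ly6C+Selp+, and read 0.112 FPKM in replicate 2. In Ly6C-Selp+ it reached 12.4 FPKM in replicate 1 and 1.07 in replicate 2, from about 64 and 10 fragments. Both Ly6C-Selp+ libraries were therefore above all the others, but they lay 11.5-fold apart. The difference from Ly6C+Selp- was 2.40 ± 0.74 on the log2 scale and did not pass (limma, adjusted p = 0.14). It was 3.75 without replicate 2 of Ly6C-Selp+ and 1.05 without replicate 1. Each of these fits leaves 1 library in that subset, so neither bears on the spread within Ly6C-Selp+. Lyve1 met the filter only through the Ly6C-Selp+ libraries, where it is high. With no filter, the adjusted p of the limma fit on all libraries was 0.75.

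Multimerin 1, an EMILIN-family protein of lymphatic endothelium, platelets and megakaryocytes, followed the same libraries. Mmrn1 was listed at 0 in 3 of the 4 Ly6C+ libraries and read 0.0606 FPKM in replicate 2 of Ly6C+Selp+. It was at 11.8 FPKM (111 fragments) and 0.583 FPKM (8 fragments) in replicates 1 and 2 of Ly6C-Selp+, a ratio of 20.3. Mmrn1 was below the filter, since only 1 library reached 1 FPKM. Fitted with no filter, it was 2.17 ± 1.10 higher on the log2 scale in Ly6C-Selp+ than in Ly6C+Selp- (limma, adjusted p = 0.92). The 8 megakaryocyte and platelet genes summed to 9.32 and 7.73 FPKM in these 2 libraries and to 1.62 to 6.76 in the others. The sum of the first library was mostly Clec1b (7.42 FPKM), and the other 7 genes came to 1.90 and 5.43 in the 2 Ly6C-Selp+ libraries and to 1.62 to 5.64 elsewhere. Of the 8 genes, 4 were listed at 0 in the library where Mmrn1 was highest, Pf4 (platelet factor 4) among them. Itga2b, another of the 8, was highest in that library, at 1.38 FPKM against 0.639 in replicate 2 and at most 0.831 in the Ly6C+ libraries. The part of megakaryocytes and platelets in the Mmrn1 values was not tested.

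Reelin, an extracellular glycoprotein secreted by lymphatic ECs, was highest in the same library at a lower level. Reln read 1.31 FPKM (33 fragments) in replicate 1 and 0.180 (8 fragments) in replicate 2 of Ly6C-Selp+. Elsewhere it was at 0.111 FPKM in replicate 1 of Ly6C+Selp- and listed at 0 in the other 3 libraries. It was not tested because of the filter. Without the filter the difference from Ly6C+Selp- was 0.65 ± 0.36 (limma, adjusted p = 0.96).

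Across the 6 libraries, Lyve1 correlated with Mmrn1 (Pearson r = 0.99) and with Reln (r = 0.98), a description that rests on the single library in which all are high. Prox1 did not share this gap, at 3.05 and 3.22 FPKM in the libraries where Lyve1 read 12.4 and 1.07.

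In that library, replicate 1 of Ly6C-Selp+, 88 of the 24457 gene rows reached 1 FPKM, did so in no other library, and were at least 4 times as high, after adding 0.1 FPKM, as in each of the other libraries; the other 5 libraries had 11 to 48 such rows. Mmrn1 and Reln were among the 88, and Lyve1 was not, since it also reached 1 FPKM in replicate 2. Most of the 88 rested on few fragments, the 10 with the largest ratios on 1 to 8 each. Of the lymphatic and sinusoidal lists, 2 genes were among the 88: Gata4, a transcription factor of liver sinusoidal endothelium, at 1.25 FPKM from 9 fragments, and Tbx1, a T-box factor of lymphatic development, at 1.35 FPKM from 3 fragments.

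Mrc1, the mannose receptor of sinusoids and macrophages, was higher in replicate 1 of every subset. It read 7.84 and 0.548 FPKM in Ly6C+Selp-, 3.36 and 0.525 in Ly6C+Selp+ and 15.5 and 1.67 in Ly6C-Selp+, which are ratios of 14.3, 6.40 and 9.32 between replicates. The subsets overlapped, and no comparison passed. The difference of Ly6C-Selp+ from Ly6C+Selp- was 0.84 ± 0.98 on the log2 scale (limma, adjusted p = 0.81), and from Ly6C+Selp+ 1.37 ± 0.98 (limma, adjusted p = 0.73).

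The 20 macrophage marker genes moved with Mrc1. Their summed FPKM was 553 and 102 in Ly6C+Selp-, 232 and 98.2 in Ly6C+Selp+ and 834 and 173 in Ly6C-Selp+ libraries. Replicate 1 was higher for 19, 16 and 20 of the 20 genes in the 3 subsets, as it was for 81.9%, 62.5% and 63.4% of all tested genes. None of the 20 was at 0 in all libraries, although the sort gated for CD45- cells. Ptprc, which encodes CD45, read 28.9 and 7.81 FPKM in Ly6C-Selp+ and 2.88 to 10.6 in the other libraries, and Csf1r, the receptor for macrophage colony-stimulating factor, read 16.7 and 3.45 in Ly6C-Selp+ and 1.18 to 11.3 elsewhere. Beside 2.09% of all tested genes, 1 of the 16 macrophage genes tested rose between Ly6C+Selp- and Ly6C-Selp+ (median 0.87 on the log2 scale). It was Cd14, a co-receptor for lipopolysaccharide, at 15.9 and 11.8 against 3.45 and 1.58 FPKM (limma, adjusted p = 0.015), a call lost without replicate 2 of Ly6C+Selp- or either Ly6C-Selp+ library (limma, adjusted p = 0.057 to 0.12). The 9 thymocyte genes, whose cells also carry CD45, summed to 93.7 against 25.1, 66.4 against 41.0 and 158 against 76.3 FPKM, with replicate 1 higher for 9, 7 and 9 of them. The part of these cells in the Mrc1 values was not tested. Stab1, which macrophages also make, read 22.0 and 23.6 FPKM in replicates 1 and 2 of Ly6C+Selp-, with overlapping Cufflinks intervals. In Ly6C+Selp+ and Ly6C-Selp+ it was higher in replicate 2, with intervals apart. The macrophage sum was lower in replicate 2 of every subset. Whether macrophages add to the Stab1 values was not tested. Lyve1 read 12.4 FPKM in the library with the largest macrophage sum (834), 1.07 where that sum was 173, and was listed at 0 where it was 553. The part of macrophages in the Lyve1 values was not tested.

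**Figure D2:**
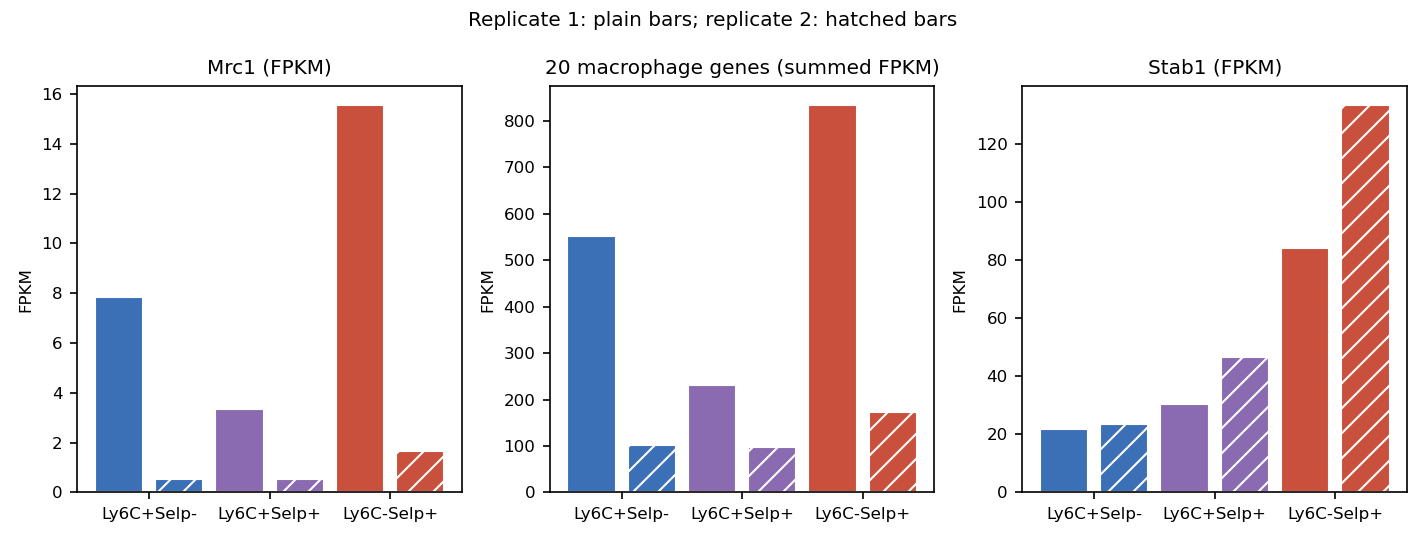
Mrc1 (left), the summed 20 macrophage marker genes (middle) and Stab1 (right) in FPKM for each library; bars start at 0, plain bars are replicate 1, hatched bars replicate 2, and colours the subsets. Mrc1 and the macrophage sum are higher in replicate 1 of every subset. Stab1 is higher in replicate 2 of Ly6C+Selp+ and Ly6C-Selp+, and in Ly6C+Selp- its replicates have overlapping Cufflinks intervals.

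Podoplanin, the CLEC-2 ligand of lymphatic ECs, fibroblastic reticular cells and medullary epithelium, differed little between subsets. Pdpn read 3.50 and 1.40 FPKM in Ly6C+Selp-, 4.64 and 1.64 in Ly6C+Selp+ and 5.18 and 1.90 in Ly6C-Selp+ libraries, from 7 to 17 fragments each. Replicate 1 was again the higher one, by 2.50, 2.82 and 2.73 times, and the subsets overlapped fully. Ly6C-Selp+ exceeded Ly6C+Selp- by 0.36 ± 0.53 on the log2 scale (limma, adjusted p = 0.86). The sum of the 9 thymic epithelial marker genes was also higher in replicate 1, at 83.9 against 32.4, 52.3 against 34.5 and 67.4 against 19.2 FPKM. The 9 fibroblast genes summed to 356 against 207, 511 against 316 and 222 against 205 FPKM. Replicate 1 was higher for 9, 9 and 4 of these 9 genes, and without Thy1, which thymocytes also make, the Ly6C-Selp+ sums were 185 and 190 FPKM. The sort gated for CD31+ and EpCAM- cells, and the part of epithelium and fibroblasts in the Pdpn values was not tested.

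Stab2, the stabilin that clears hyaluronan in liver and lymph node sinuses, was low in every library. It read 0.882 and 0.418 FPKM in Ly6C+Selp-, 0.475 and 0.169 in Ly6C+Selp+ and 1.73 and 0.619 in Ly6C-Selp+ libraries, from 5 to 31 fragments. Both Ly6C-Selp+ values were above those of Ly6C+Selp+ but overlapped with those of Ly6C+Selp-. Stab2 was far below Stab1 in Ly6C-Selp+ ECs, with 1.18 ± 0.789 against 109 ± 34.6 FPKM (SD, n = 2).

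The agreement between replicates thus varied by gene and by subset. The 95% intervals of the 2 replicates did not overlap for 2 of the 9 genes in Ly6C+Selp- (Mmrn2 and Mrc1), for 3 in Ly6C+Selp+ (Mmrn2, Stab1 and Mrc1) and for 7 in Ly6C-Selp+, where only Prox1 and Pdpn had overlapping intervals. Among all tested genes the shares were 31%, 15.7% and 23.2%. The 9 genes include Mmrn1, Reln and Stab2, which failed the filter and are not among the tested genes. Replicate 1 was the higher one for 81.9%, 62.5% and 63.4% of all tested genes in Ly6C+Selp-, Ly6C+Selp+ and Ly6C-Selp+, with median differences of 0.39, 0.14 and 0.18 on the log2 scale.

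Other genes of lymphatic endothelium did not move in one direction. Of 18 further lymphatic genes, 13 were tested between Ly6C-Selp+ and Ly6C+Selp-, 1 rose and 2 fell, with a median of 0.71 on the log2 scale beside 0.08 over all tested genes, of which 2.09% rose and 2.05% fell. The gene that rose was Fxyd6, a regulator of the sodium pump, at 13.2 and 12.5 FPKM in Ly6C-Selp+ against 2.00 and 1.44 in Ly6C+Selp- (2.35 ± 0.50; limma, adjusted p = 0.031). It no longer passed when any single library of these 2 subsets was left out (limma, adjusted p = 0.11 to 0.19), or with a pseudocount of 0.1 or 0.5 (0.13 and 0.058). Sox18, a SOX factor that acts upstream of Prox1 in lymphatic development and is also made by blood ECs, fell from 99.6 to 47.8 FPKM (limma, adjusted p = 0.040), a call lost when any one library was left out. Efnb2, the arterial ligand ephrin B2 that is also needed in lymphatic valves, fell from 42.0 to 8.82 FPKM (limma, adjusted p = 0.0053, or 0.14 with no filter).

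The remaining lymphatic genes were not called. Flt4, the receptor VEGFR3, was lower in both Ly6C-Selp+ libraries, at 8.30 ± 1.63 FPKM against 18.4 ± 2.34 (SD, n = 2; limma, adjusted p = 0.080). Nr2f2, the venous factor COUP-TFII that partners PROX1, was higher, at 31.0 and 23.7 against 14.2 and 6.93 FPKM (limma, adjusted p = 0.068). Itga9, an integrin of lymphatic valves, read 12.1 and 13.2 against 5.61 and 5.66 FPKM (limma, adjusted p = 0.096). The summed FPKM of the 18 genes was 241 and 232 in Ly6C-Selp+, 215 and 208 in Ly6C+Selp+ and 253 to 299 in Ly6C+Selp- libraries. That the sum was lower than in Ly6C+Selp- rests on Sox18 and Efnb2, which fell. The lymphatic chemokine Ccl21a was listed at 0 in all 6 libraries, in 2 rows of near-identical copies, so its level is uncertain.

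Of 13 sinusoidal genes, Flt4 among them, 8 were tested. Between Ly6C+Selp- and Ly6C-Selp+, 2 rose and 0 fell, beside 2.09% and 2.05% of all tested genes. The median of the 8 was 0.58 on the log2 scale beside 0.08 over all genes. The 2 that rose were Ehd3, an endocytic ATPase of glomerular and sinusoidal endothelium, and F8, coagulation factor VIII, which is made by sinusoidal and lymphatic ECs. Ehd3 read 3.96 and 3.32 FPKM in Ly6C+Selp-, 18.3 and 29.9 in Ly6C+Selp+ and 38.6 and 42.9 in Ly6C-Selp+ (3.17 ± 0.30 between the outer subsets; limma, adjusted p = 0.00063, or 0.058 with no filter). F8 read 1.26 and 0.755, then 11.5 and 7.95, then 30.1 and 21.0 FPKM in the same order (3.72 ± 0.33; limma, adjusted p = 0.00053, or 0.052 with no filter). Like Stab1, both genes were ordered without overlap, with Ly6C+Selp+ in between.

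Unlike Stab1, Ehd3 and F8 were already past the threshold when the 2 Ly6C+ subsets were compared, higher in Ly6C+Selp+, Ehd3 by 2.40 (limma, adjusted p = 0.014) and F8 by 2.41 (limma, adjusted p = 0.022); whether their step differed from that of Stab1 was not tested. The F8 step was lost when any one of the 4 libraries compared was left out (limma, adjusted p = 0.064 to 0.19), and the Ehd3 step without replicate 2 of Ly6C+Selp- or of Ly6C+Selp+ (limma, adjusted p = 0.12 and 0.14). Oit3, a liver sinusoidal gene, was at 1.24 and 2.06 FPKM in Ly6C-Selp+ and at most 0.335 in the other libraries, and did not pass (limma, adjusted p = 0.22). Flt4 had lower values in Ly6C-Selp+, as given above, and Bmp2, an angiocrine ligand of liver sinusoids, read 4.36 and 5.53 against 7.85 and 5.38 FPKM (limma, adjusted p = 0.75). The summed FPKM of the 13 genes was 111 and 86.6 in Ly6C-Selp+ and 30.9 to 56.1 in the other libraries. Ehd3 (38.6 and 42.9 FPKM) and F8 (30.1 and 21.0) made up most of the Ly6C-Selp+ sums. Without them, the sums in Ly6C-Selp+ overlapped with those of both Ly6C+ subsets.

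**Figure D3:**
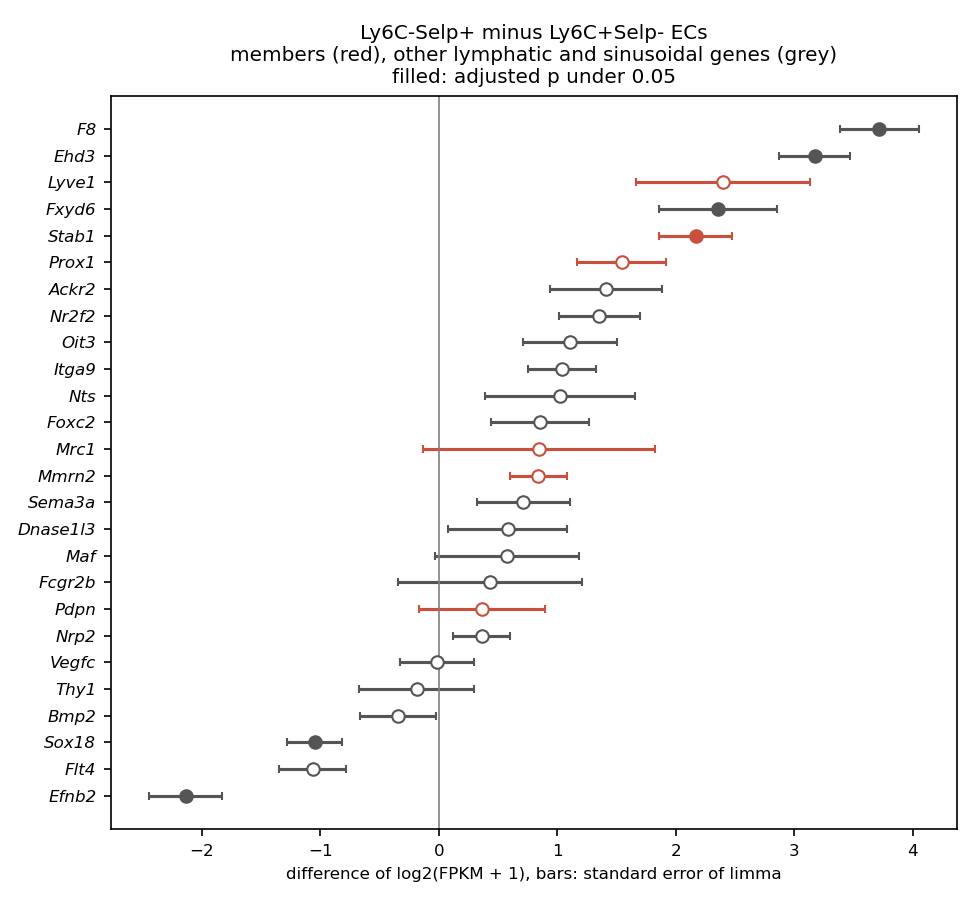
Differences between Ly6C-Selp+ and Ly6C+Selp- ECs on the log2(FPKM + 1) scale for the 6 tested members (red) and the tested genes of the lymphatic and sinusoidal lists (grey), with bars for the limma SE and filled points for genes past an adjusted p of 0.05. Of the members Stab1 is called higher. In the lymphatic list Fxyd6 is called higher and Sox18 and Efnb2 lower, and in the sinusoidal list Ehd3 and F8 are called higher.

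Genes that act with the 9 members were followed as well. Multimerin 2 binds CD93, CD248 and CLEC14A, which are receptors of the C-type lectin domain group 14. Of 7 listed partners and relatives of the multimerins, 6 were tested. Between Ly6C+Selp- and Ly6C-Selp+, 1 of them fell, beside 2.05% of all tested genes (median -0.62 on the log2 scale). This was Cd93, at 216 and 174 FPKM in Ly6C+Selp-, 154 and 119 in Ly6C+Selp+ and 94.3 and 83.9 in Ly6C-Selp+ libraries (-1.11 ± 0.24; limma, adjusted p = 0.038), whose call was lost when any one library was left out. Cd93 was thus ordered against Mmrn2, while Clec14a was ordered with it, at 36.8 and 30.1, then 45.9 and 42.3, then 70.1 and 63.3 FPKM. The Clec14a difference of 0.98 ± 0.24 between the outer subsets was not past the threshold (limma, adjusted p = 0.057). Cd248 read 12.8 and 6.59, then 10.2 and 8.20, then 0.566 and 4.49 FPKM in the same order of subsets. Its difference of -1.80 ± 0.56 between the outer subsets did not pass (limma, adjusted p = 0.14).

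Of 3 genes of reelin signalling, the receptor Vldlr was tested. It rose in Ly6C-Selp+, to 7.91 and 6.63 FPKM against 0.278 and 0.0953 in Ly6C+Selp- and 1.15 and 1.47 in Ly6C+Selp+ libraries (2.80 ± 0.35 against Ly6C+Selp-; limma, adjusted p = 0.0025, or 0.086 with no filter). Of all tested genes, 2.09% rose between Ly6C+Selp- and Ly6C-Selp+. Both Ly6C-Selp+ libraries were high for Vldlr, whereas 1 was high for its ligand Reln. Vldlr also binds lipoproteins, and the adaptor Dab1 that reelin receptors signal through was listed at 0 in every library. None of the 5 podoplanin partners was called in any comparison, beside 4.14% of all tested genes between Ly6C-Selp+ and Ly6C+Selp-. Clec1b, which encodes the podoplanin receptor CLEC-2 of platelets and is also found on liver sinusoidal ECs, read 7.42 and 2.30 FPKM in Ly6C-Selp+ and at most 1.78 in the other libraries (limma, adjusted p = 0.14), from 13 fragments or fewer.

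The genes whose FPKM followed each tested member most closely over the 6 libraries, by Pearson r, are given as a description. For Stab1 they were Eng, which encodes the TGF-beta co-receptor endoglin (r = 1.00), Klhl3 and Flnc (both 0.99). Those nearest to Mmrn2 were Npr1, a natriuretic peptide receptor (1.00), the transglutaminase Tgm2 and Gm7694 (both 0.99). Prox1 was followed by Wipf3 (1.00), Pde7b and Fahd2a (both 0.99), and Lyve1 by Uhrf1bp1l (1.00), Ccdc181 and Adamdec1 (both 0.99). For Mrc1 the nearest genes were Itch, the purinergic receptor P2ry13 and Derl2, and for Pdpn they were Sumo2, Brox and Pcmt1 (each 1.00). The search covered all 11717 tested genes, and the 6 libraries it used come from the same 3 subsets.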

How the data were processed

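RNA was extracted from sorted thymic ECs and sequenced in 6 libraries. The submitters' processing notes name CASAVA 1.8, TopHat2 2.0.10, Cufflinks 2.1.1, Cuffdiff and the mm9 build; the gene annotation is not given in the sources used here. The authors deposited 1 Cufflinks table per library with FPKM values and their 95% interval bounds. Libraries were not scaled to each other, so composition can move a value, and depth had to be estimated as (2 × FPKM / (upper bound - FPKM)) squared.

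Of the gene rows, 95 spike-in or reporter rows off the chromosomes were left out. Genes of at least 1 FPKM in at least 2 libraries were tested with limma 3.58.1 (R 4.3.3) on log2(FPKM + 1), with a trend, 1 mean per subset over all 6 libraries, Benjamini-Hochberg adjustment over 11717 genes and a threshold of 0.05. A pseudocount of 1 understates the change of low genes. Fold differences are ratios of mean FPKM. The procedure was tested on simulated data. Gene positions came from the GENCODE annotation of the same build.

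The members and gene lists were chosen with earlier results of these data known. The genes named were the 9 members, the called genes of each list or otherwise its most abundant ones, and the 3 genes closest to each member; any other gene named was chosen after its values were seen. Each fit was repeated with other pseudocounts, filters and scalings, a replicate block, only the subsets compared, no trend and each library left out.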

Additional observations from a re-analysis of the deposited data

How the results depend on the processing

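Stab1 in Ly6C-Selp+ against Ly6C+Selp- passed in 6 of 6 fits with 1 library left out (1.84 to 2.50 on the log2 scale) and in 8 of 9 other settings; it was lost when no filter was applied (limma, adjusted p = 0.16). Over all gene values recomputed, 442 kept their direction and side of the threshold, 73 no longer passed, 5 newly passed and 11 changed sign. With no filter, 18 of the 19 calls on members and listed genes were lost, and the one kept was Vwf in Ly6C-Selp+ against Ly6C+Selp-.

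Replicate numbers are shared by the subsets, but only 2 pairs exist and nothing says that they mark shared mice. Deviations of same-numbered libraries correlated at 0.31, 0.20 and 0.18. With the replicate block, the genes called rose from 485 to 971 between Ly6C-Selp+ and Ly6C+Selp-, from 46 to 183 between Ly6C+Selp+ and Ly6C+Selp-, and from 26 to 229 between Ly6C-Selp+ and Ly6C+Selp+; under this block Prox1 (adjusted p = 0.029) and Mmrn2 (0.027) passed in the first comparison and Stab1 (0.016) in the last. Prox1 also passed with no trend (limma, adjusted p = 0.033), but not with no filter (0.24). It would not have met the filter without the subset where it is high.

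In the same order, the counts were 102, 10 and 2 with no filter. For the last 2 comparisons they were 103 and 90 with quantile normalization, 102 and 126 with equal summed FPKM, 29 and 7 with only the subsets compared and 15 and 10 with no trend. Leaving out 1 library gave 209 to 404, 12 to 33 and 2 to 14; the lowest count of the first comparison came without replicate 1 of Ly6C-Selp+. The cause was not tested. A scaling to equal summed FPKM moved the share of higher calls from 42.3% to 22.2% between Ly6C-Selp+ and Ly6C+Selp+, and the median of all genes there from 0.14 to -0.05; quantile normalization gave 24.4%.

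Pdpn changed sign: its difference between Ly6C-Selp+ and Ly6C+Selp+ was 0.13 and became -0.033 with equal summed FPKM. Over the fits without 1 library, Pdpn ranged from -0.18 to 0.91 (Ly6C-Selp+ against Ly6C+Selp-), -0.32 to 0.78 (Ly6C+Selp+ against Ly6C+Selp-) and -0.42 to 0.68 (Ly6C-Selp+ against Ly6C+Selp+), and Mrc1 from -0.47 to 2.16 and from -1.78 to 0.74 in the first 2 of these. None of these values passed the threshold. Depth limits the low members: Pdpn rests on 7 to 17 fragments in every library, and Lyve1, Mmrn1 and Reln on 10 or fewer in all libraries but replicate 1 of Ly6C-Selp+.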

Other observations

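Of 14 further scavenger and mannose receptor genes, 12 were tested between Ly6C-Selp+ and Ly6C+Selp- ECs. Of these, 1 rose and 0 fell, beside 2.09% and 2.05% of all tested genes. Their median was 0.18 on the log2 scale beside 0.08 over all tested genes. The gene that rose was Olr1, the endothelial receptor for oxidised low-density lipoprotein. Olr1 read 7.14 and 6.60 FPKM in Ly6C-Selp+, 0.499 and 0.319 in Ly6C+Selp+ and 0.189 and 0 in Ly6C+Selp- libraries (2.85 ± 0.36 against Ly6C+Selp-; limma, adjusted p = 0.0027, or 0.078 with no filter). It reached 1 FPKM only in the Ly6C-Selp+ libraries, so it met the filter through the subset where it is high. It also passed against Ly6C+Selp+ (2.48; limma, adjusted p = 0.042), a call lost when any one library was left out.

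Cd36, the fatty acid and thrombospondin receptor, was ordered the other way. It read 515 and 263 FPKM in Ly6C+Selp-, 350.3 and 193 in Ly6C+Selp+ and 144 and 91.5 in Ly6C-Selp+ libraries, and narrowly missed the threshold between the outer subsets (-1.67 ± 0.40; limma, adjusted p = 0.056).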
